A study of Homo sapiens with 6 samples.

Results

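The 10 genes described here were the transcription factors and core markers of the epithelial–mesenchymal transition (EMT), chosen by gene symbol from the 58174 genes listed in the deposited tables. They were SNAI1, SNAI2, ZEB1, ZEB2, TWIST1 and TWIST2, which encode EMT transcription factors, the epithelial marker CDH1, and the mesenchymal markers CDH2, VIM and FN1. The samples were 6 RNA-seq libraries of T24, an established human bladder cancer cell line, 3 with a knockdown of UBC9 (shRNA-UBC9) and 3 controls (shRNA-NC). UBC9 is the enzyme that conjugates the small protein SUMO to its targets. The shRNA against UBC9 was cloned into the lentiviral pLKO.1 vector, and infected cells were selected with puromycin. The paper describes stable expression of an shRNA in both groups but names the vector only for the shRNA against UBC9. The shRNA-UBC9 samples expressed 1 shRNA against UBC9 and the shRNA-NC samples expressed a scrambled shRNA, so an effect of UBC9 loss and an effect of this particular shRNA cannot be told apart. The sources used here do not state whether the 3 samples of a group came from separate cultures, and the p-values below measure the spread between these samples, which may be technical.

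During EMT, epithelial cells lose contacts with their neighbours, rearrange their filaments and acquire the ability to migrate. SNAIL, ZEB and TWIST proteins drive this process by binding E-boxes, short DNA motifs, and repressing epithelial genes such as CDH1, while N-cadherin, vimentin and fibronectin increase. In urothelial carcinoma, loss of E-cadherin is known from invasive and poorly differentiated tumours, and several of the transcription factors are themselves modified by SUMO.

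Expression was measured in RPKM, in which reads are divided by gene length and by the total of mapped reads. The mapped reads per sample, estimated from the steps that 1 read makes in low values, ranged from 28200000 to 36100000, and the ranges of the groups overlapped. Of the 14 urothelial markers examined, GATA3, PPARG and FOXA1 were expressed, KRT20 and KRT5 were listed at 0 in every sample, and the uroplakin genes UPK1A, UPK1B, UPK2, UPK3A and UPK3B did not exceed 0.167 RPKM. Among the samples, shRNA-UBC9 replicate 1 stood apart from the other shRNA-UBC9 samples for FN1, VIM and many epithelial genes, and the values of FN1, VIM, ZEB2, EHF, DSP, LSR and INHBA without it are given with their results.

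A gene was tested when it reached 0.5 RPKM in at least 3 of the 6 samples, and it was called when the adjusted p from limma on log2(RPKM + 0.1) was below 0.05. Of the 10 EMT genes, 7 passed the filter, and CDH1, TWIST1 and TWIST2 did not. SNAI1, SNAI2 and ZEB2 were called, all with higher expression in shRNA-UBC9, whereas ZEB1, CDH2, VIM and FN1 were not called. Of all 12428 tested genes 36.8% were called, 18.8% as higher and 18% as lower, so 3 calls among 7 genes (42.9%) lay near the share of all genes. The median log2 fold change of the 7 genes was -0.06 against 0.005 for all tested genes. A DEG additionally required a log2 fold change beyond 1 in either direction, which 7.89% of tested genes met, 5.2% being higher and 2.7% lower, and SNAI1 was the only DEG among the 7. With a pseudocount of 1 its log2 fold change was 0.94, still called but below the DEG cutoff. The groups did not overlap for SNAI1, SNAI2 and ZEB2, which were higher, and for CDH2, which was lower in shRNA-UBC9, while 51.1% of all tested genes had groups that did not overlap, 25.7% with higher and 25.4% with lower values in shRNA-UBC9. Because RNA was taken from whole cultures, fewer cells of a type and less RNA per cell cannot be told apart for any of these genes.

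**Figure D1:**
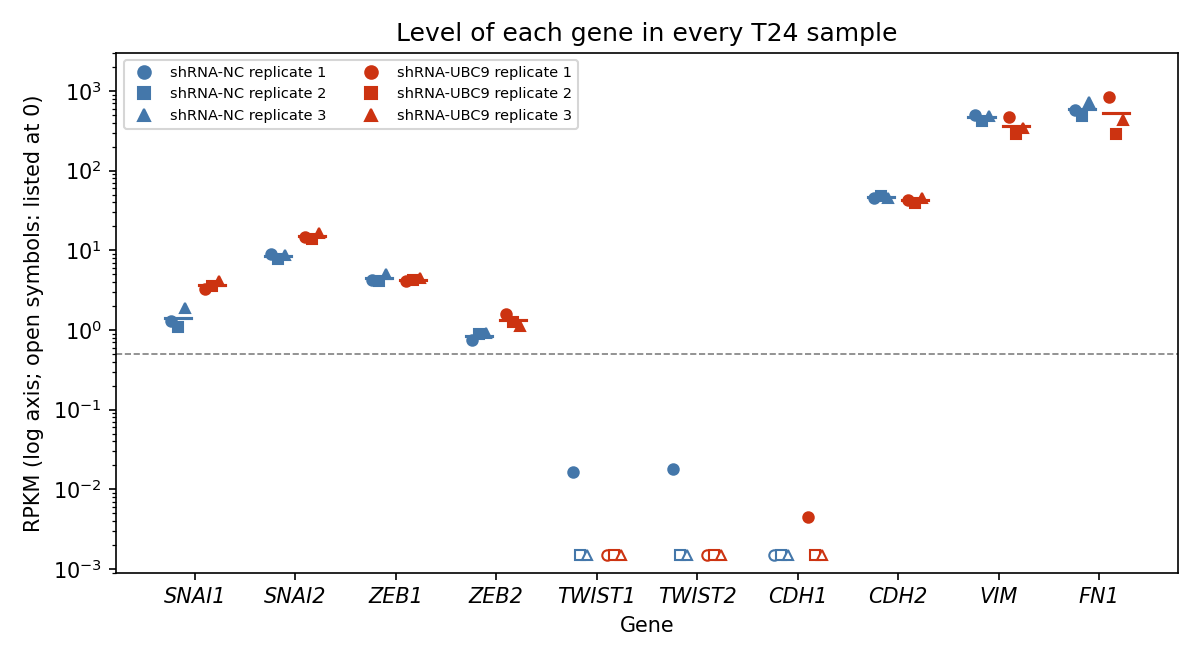
Expression of the 10 EMT genes in RPKM (log axis) in every T24 sample, with blue symbols for shRNA-NC, red symbols for shRNA-UBC9, a shape for each replicate number, horizontal bars for group means, open symbols for values listed at 0 and a dashed line at 0.5 RPKM. The lowest value of FN1 and VIM is 285.8 RPKM, CDH2 lies between 39.0 and 47.6, the SNAIL and ZEB genes between 0.740 and 16.6, and TWIST1, TWIST2 and CDH1 at 0 or at most 0.0178 RPKM.

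The order of levels per kilobase in shRNA-NC was FN1, VIM, CDH2, SNAI2, ZEB1, SNAI1 and ZEB2, followed by TWIST2, TWIST1 and CDH1. The ranges of FN1 and VIM overlapped, as did those of the lowest 3 genes, and the ranges of every other pair of neighbours in this order did not overlap. In shRNA-UBC9 the order of the first 7 genes was the same, but ZEB1 and SNAI1 also overlapped. SNAI1, at 32.1% of the ZEB1 level in shRNA-NC on the group means, reached 85.2% of it in shRNA-UBC9.

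SNAI1 encodes SNAIL, a zinc-finger repressor that acts early in EMT and whose protein is short-lived. The gene lies on the plus strand at chr20:49982980-49988886 (GRCh38, ENSG00000124216.4) and has 1 annotated transcript. Its level was 1.31, 1.10 and 1.89 RPKM in the shRNA-NC samples and 3.22, 3.60 and 4.10 RPKM in the shRNA-UBC9 samples. These values came from 64 to 214 reads, the fewest among the 7 tested EMT genes. Every shRNA-UBC9 sample was above every shRNA-NC sample, and the shRNA-NC samples spread more widely, with a coefficient of variation of 28.8% against 12.0% in shRNA-UBC9. The mean of SNAI1 was 1.43 ± 0.412 RPKM in shRNA-NC and 3.64 ± 0.439 RPKM in shRNA-UBC9 (SD, n = 3 each), so that expression rose 2.54-fold. The log2 fold change was 1.31 (SE 0.19, 95% interval 0.87 to 1.75, limma, adjusted p = 0.00154).

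SNAI2 encodes SLUG, the relative of SNAIL that is also found in basal epithelial and migrating neural crest cells. It lies on the minus strand at chr8:48917598-48921740 (GRCh38, ENSG00000019549.13). SNAI2 was 9.08, 7.68 and 8.74 RPKM in shRNA-NC and 14.6, 14.1 and 16.6 RPKM in shRNA-UBC9, from 586 to 1163 reads. It had the highest RPKM of the 6 EMT transcription factors in both groups, and the shRNA-UBC9 values were all above the shRNA-NC values. The SNAI2 mean was 8.50 ± 0.731 RPKM in shRNA-NC and 15.1 ± 1.34 RPKM in shRNA-UBC9 (SD, n = 3 each), a 1.78-fold rise. The log2 fold change of 0.82 (SE 0.10, 95% interval 0.59 to 1.06, limma, adjusted p = 0.000778) did not reach the DEG cutoff.

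ZEB1 and ZEB2 encode large zinc-finger and homeobox repressors that bind E-boxes of the form CACCTG. The level of ZEB1 did not separate the groups. It was 4.22, 4.10 and 5.09 RPKM in shRNA-NC and 4.09, 4.30 and 4.43 RPKM in shRNA-UBC9, from 1081 to 1491 reads. The 3 shRNA-UBC9 values lay within or just below the range of the shRNA-NC values. The log2 fold change of ZEB1 (chr10:31318495-31529814, plus strand, ENSG00000148516.23) was -0.06 (SE 0.11, 95% interval -0.31 to 0.19, limma, adjusted p = 0.703).

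The sequence before the start of each ZEB gene is shown because the genes encode related factors of which ZEB2 was called and ZEB1 was not. The sequences come from RefSeq (GRCh38.p14), run 5′ to 3′ on the strand of the gene over the 250 bases before a transcription start, and have any CACCTG or its reverse complement CAGGTG in capitals. The ZEB1 sequence spans chr10:31318167-31318416 on the plus strand, and the ZEB2 sequence spans chr2:144520120-144520369 on the minus strand.
ZEB1: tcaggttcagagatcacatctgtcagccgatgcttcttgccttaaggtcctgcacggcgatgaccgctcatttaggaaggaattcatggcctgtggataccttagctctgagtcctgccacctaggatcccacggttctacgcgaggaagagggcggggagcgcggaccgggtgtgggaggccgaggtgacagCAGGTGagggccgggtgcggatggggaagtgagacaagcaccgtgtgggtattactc
ZEB2: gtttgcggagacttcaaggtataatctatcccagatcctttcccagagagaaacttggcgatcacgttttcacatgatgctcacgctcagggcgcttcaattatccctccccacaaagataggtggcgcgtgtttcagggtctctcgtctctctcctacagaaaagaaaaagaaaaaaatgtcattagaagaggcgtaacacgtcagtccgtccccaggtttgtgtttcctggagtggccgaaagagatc
The ZEB1 sequence held 1 such E-box, at position -57 from the start, and the ZEB2 sequence held none. ZEB1 had 7 annotated starts, and 2 of their windows of 300 bases, which include 50 bases after the start, held an E-box. Of the 10 EMT genes 6 were found among these promoters, with 13 windows in all, and both windows with a match were those of ZEB1. Of all 35116 windows of this length 20.6% held the motif on either strand, so a match describes the letters only.

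ZEB2 was expressed at a lower level per kilobase, 0.740, 0.879 and 0.910 RPKM in shRNA-NC and 1.61, 1.24 and 1.13 RPKM in shRNA-UBC9. The groups did not overlap, and shRNA-UBC9 replicate 1 was the highest. The mean was 0.843 ± 0.0902 RPKM in shRNA-NC and 1.33 ± 0.249 RPKM in shRNA-UBC9 (SD, n = 3 each), and the gene was called as higher with a log2 fold change of 0.59 (SE 0.17, 95% interval 0.19 to 0.99, limma, adjusted p = 0.0298). Its RPKM is spread over a long gene model, since the values correspond to whole reads at a length of 21854 bases, and 483 to 1268 reads lay behind them. ZEB2 (chr2:144364364-144521057, minus strand, ENSG00000169554.23) was the least stable of the 3 calls. It was no longer called without shRNA-NC replicate 1 (limma, adjusted p = 0.0892), shRNA-NC replicate 2 (0.0522), shRNA-NC replicate 3 (0.0603), shRNA-UBC9 replicate 1 (0.0798) or shRNA-UBC9 replicate 2 (0.0665), while the log2 fold change stayed between 0.45 and 0.69 when each of the 6 samples was left out.

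TWIST1 and TWIST2 encode basic helix-loop-helix factors that also bind E-boxes. TWIST1 was listed at 0.0165 RPKM in shRNA-NC replicate 1, about 1 read, and at 0 in the other 5 samples. TWIST2 was likewise listed at 0.0178 RPKM in shRNA-NC replicate 1 and at 0 elsewhere. At this depth a count of 0 allows up to 3 reads, which corresponds to 0.0417 to 0.0532 RPKM for TWIST1 and 0.0390 to 0.0499 RPKM for TWIST2, a limit that covers counting error only. Both TWIST genes, TWIST1 at chr7:19020991-19117636 (minus strand, ENSG00000122691.13) and TWIST2 at chr2:238848032-238910534 (plus strand, ENSG00000233608.5), were therefore at or near the limit of detection in both groups, and no fold change is given. An exact permutation test gave p = 1 for each, where 3 samples against 3 cannot give less than 0.1.

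CDH1 encodes E-cadherin, the adhesion protein of epithelial junctions and the textbook target of the SNAIL, ZEB and TWIST repressors. It was listed at 0 in all 3 shRNA-NC samples and in shRNA-UBC9 replicates 2 and 3, and at 0.00449 RPKM, about 1 read, in shRNA-UBC9 replicate 1. A count of 0 allows up to 0.0137 to 0.0175 RPKM for CDH1 (chr16:68737292-68835537, plus strand, ENSG00000039068.20). E-cadherin mRNA was thus not detectable in either group at this depth, and a decrease of CDH1 could not be measured in this line. The exact permutation test gave p = 1.

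CDH2 encodes N-cadherin, the cadherin of mesenchymal and neural cells that replaces E-cadherin in EMT. It was 45.3, 47.6 and 46.0 RPKM in shRNA-NC and 43.1, 39.0 and 44.9 RPKM in shRNA-UBC9, from 6267 to 8165 reads. All 3 shRNA-UBC9 values were below the lowest shRNA-NC value, but by a margin of only 0.401 RPKM at the closest. The mean was 46.3 ± 1.21 RPKM in shRNA-NC and 42.3 ± 3.03 RPKM in shRNA-UBC9 (SD, n = 3 each). CDH2 (chr18:27932879-28177946, minus strand, ENSG00000170558.10) was not called, with a log2 fold change of -0.13 (SE 0.08, 95% interval -0.32 to 0.06, limma, adjusted p = 0.256).

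VIM encodes vimentin, the intermediate filament protein of mesenchymal cells. It was 495.6, 415.6 and 491.8 RPKM in shRNA-NC and 473.5, 285.8 and 338.4 RPKM in shRNA-UBC9. The shRNA-UBC9 replicate 1 lay inside the shRNA-NC range and the other shRNA-UBC9 samples lay below it. The mean was 467.7 ± 45.1 RPKM in shRNA-NC and 365.9 ± 96.8 RPKM in shRNA-UBC9 (SD, n = 3 each), and the log2 fold change of -0.38 (SE 0.17, 95% interval -0.78 to 0.02) was not called (limma, adjusted p = 0.122). Without shRNA-UBC9 replicate 1 VIM was called as lower, with a log2 fold change of -0.58 (limma, adjusted p = 0.00841). Without shRNA-UBC9 replicate 2 its log2 fold change was -0.22 (adjusted p = 0.346). VIM was not called in any other fit that left out 1 sample (adjusted p from 0.115 to 0.346). VIM (chr10:17228241-17237593, plus strand, ENSG00000026025.16) overlaps the antisense gene VIM-AS1, and because counting by strand is not stated, reads of the pair cannot be told apart. VIM-AS1, named after its values were seen, did not exceed 2.05 RPKM in any sample.

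FN1 encodes fibronectin, a matrix glycoprotein that mesenchymal cells secrete and assemble into fibrils. It was 572.7, 483.3 and 718.3 RPKM in shRNA-NC and 838.0, 292.4 and 437.9 RPKM in shRNA-UBC9. The highest and the lowest value of the 6 samples were both from shRNA-UBC9, where the coefficient of variation was 54.0% against 20.1% in shRNA-NC. Between 178417 and 523233 reads lay behind each value, so counting error does not limit the precision of FN1. The mean was 591.5 ± 118.6 RPKM in shRNA-NC and 522.8 ± 282.5 RPKM in shRNA-UBC9 (SD, n = 3 each), and the log2 fold change of -0.30 (SE 0.34, 95% interval -1.07 to 0.47) was not called (limma, adjusted p = 0.519). FN1 (chr2:215360440-215436073, minus strand, ENSG00000115414.21) depended on single samples. Its log2 fold change was -0.71 without shRNA-UBC9 replicate 1, where it was called as lower (limma, adjusted p = 0.0326), and 0.054 without shRNA-UBC9 replicate 2 (adjusted p = 0.901).

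**Figure D2:**
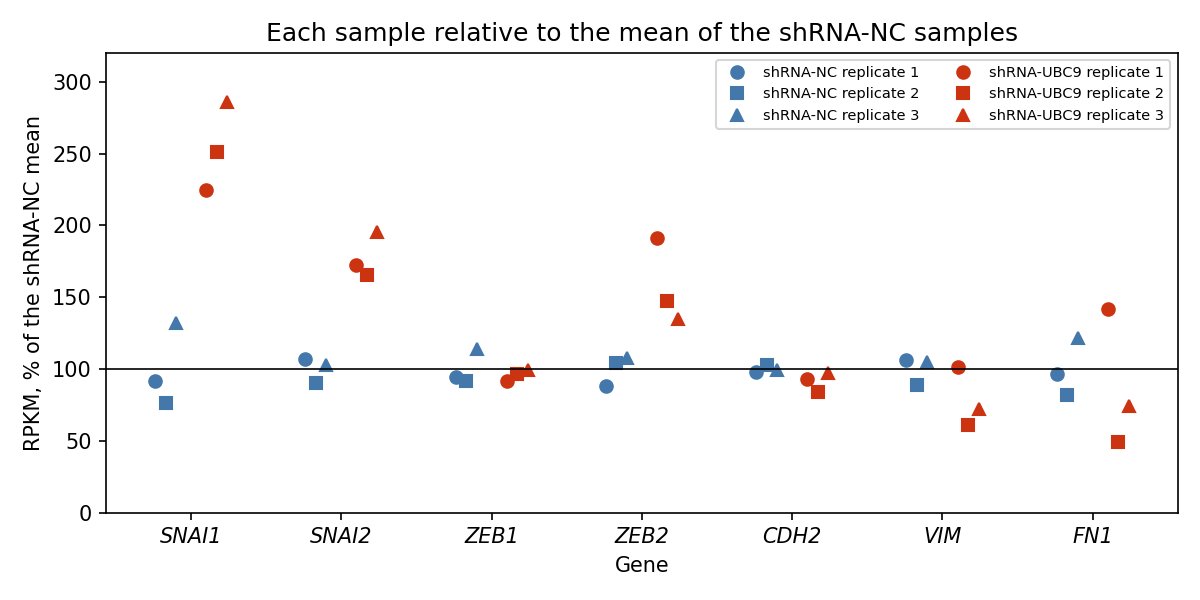
RPKM of the 7 tested EMT genes in each sample as a percentage of the shRNA-NC mean of that gene (blue symbols shRNA-NC, red symbols shRNA-UBC9, a shape for each replicate number, horizontal line at 100%). SNAI1 in shRNA-UBC9 lies at 225% to 286% and SNAI2 at 165% to 195%, while FN1 in shRNA-UBC9 is spread from 49.4% to 142%.

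**Figure D3:**
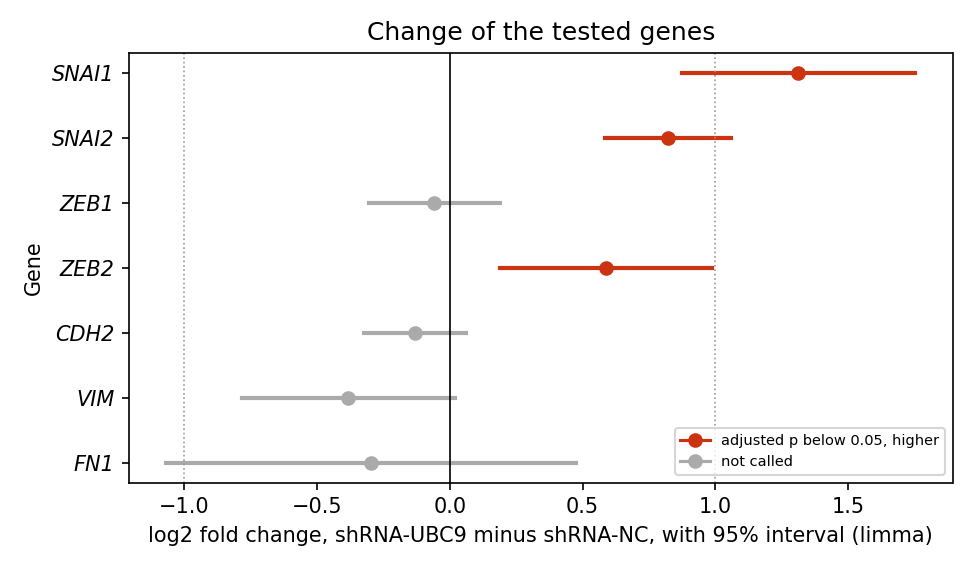
The log2 fold change (shRNA-UBC9 minus shRNA-NC, on log2(RPKM + 0.1)) of the 7 tested EMT genes with its 95% interval from limma, in red for genes called as higher and in gray for genes not called, with dotted lines at the DEG cutoff. The intervals of SNAI1, SNAI2 and ZEB2 lie above 0 and those of ZEB1, CDH2, VIM and FN1 include 0.

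To test whether related factors moved by different amounts, the difference of their log2(RPKM + 0.1) was taken within each sample. ZEB1 exceeded ZEB2 by 2.36, 2.10 and 2.36 in shRNA-NC and by 1.29, 1.71 and 1.88 in shRNA-UBC9. The gap between the ZEB genes was smaller in all 3 shRNA-UBC9 samples, by 0.65 on the means, and the exact two-sided permutation test gave p = 0.1 (adjusted p = 0.1 over 2 ratios), the smallest value that 3 against 3 samples allow. SNAI1 minus SNAI2 was -2.70, -2.70 and -2.15 in shRNA-NC and -2.15, -1.94 and -1.99 in shRNA-UBC9. The highest shRNA-NC value and the lowest shRNA-UBC9 value nearly touched, with a difference of means of 0.49 and an exact p = 0.1. With a pseudocount of 1 the difference was 0.18 (exact p = 0.3) for the SNAIL genes and -0.38 (exact p = 0.1) for the ZEB genes. The pairs TWIST1 with TWIST2 and CDH2 with CDH1 were not compared because at least 1 gene of each was at or below the 3-read limit.

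Genes that work with these transcription factors were then examined. Repression at E-boxes needs co-repressors, and 23 of 24 listed co-repressor genes were tested. None was called as higher and 7 were called as lower, a share of 30.4% against 36.8% of all tested genes, with a median log2 fold change of -0.19. AJUBA, a LIM protein that bridges SNAIL to chromatin modifiers, fell from 17.2 to 8.81 RPKM (log2 fold change -0.96, limma, adjusted p = 0.000457). HDAC1, a histone deacetylase, fell from 62.5 to 33.9 RPKM (-0.89, adjusted p = 0.000521), and SIRT1 and EZH2 both had a log2 fold change of -0.63, with EZH2 no longer called without shRNA-NC replicate 3 (adjusted p = 0.0531). CTBP1, which binds the ZEB proteins, fell by 0.48 on the log2 scale.

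Of 20 genes for the turnover of SNAIL and TWIST proteins, 19 were tested, 6 were called as higher, 4 as lower and 9 were not called, a share of 52.6% called against 36.8% of all tested genes. GSK3B, the kinase that marks SNAIL for degradation, rose from 8.55 to 12.7 RPKM (log2 fold change 0.56, limma, adjusted p = 0.00149), and FBXO45 rose by 0.56 on the log2 scale. The ubiquitin ligase subunits that recognise the marked protein are encoded by a pair of related genes, of which BTRC was called as higher (0.34, adjusted p = 0.0481) and FBXW11, from 15.0 to 11.7 RPKM, as lower (-0.35, adjusted p = 0.0104). BTRC was called in 1 of the 6 fits that left out a sample, the fit without shRNA-NC replicate 2 (adjusted p from 0.0502 to 0.144 in the others), and FBXW11 was not called without shRNA-NC replicate 3 (adjusted p = 0.0547). PRKD1, a kinase that phosphorylates SNAIL, was called as lower (-0.51, adjusted p = 0.0403), but not without shRNA-NC replicate 1 or 3 or shRNA-UBC9 replicate 1 or 2 (adjusted p from 0.0801 to 0.14). The phosphatase gene CTDSP2 and the deubiquitinase gene USP27X were also called as lower, with log2 fold changes of -0.33 and -0.50. CTDSP2 was called in 1 of the 6 fits that left out a sample, the fit without shRNA-NC replicate 2 (adjusted p from 0.0542 to 0.162 in the others), and USP27X was not called without shRNA-NC replicate 3 (adjusted p = 0.0732) or shRNA-UBC9 replicate 2 (adjusted p = 0.0638). Protein levels of SNAIL, SLUG and TWIST were not measured here.

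Of 30 other EMT transcription factors, 20 were tested, 5 were called as higher, 5 as lower and 10 were not called, a share of 50% called against 36.8% of all tested genes, with a median log2 fold change of -0.19. The architectural chromatin factor HMGA2 was the DEG among them. It was 5.77, 5.67 and 6.28 RPKM in shRNA-NC and 41.9, 26.2 and 28.0 RPKM in shRNA-UBC9, and its log2 fold change was 2.39 (SE 0.17, limma, adjusted p = 5.4e-05), and the groups were far apart. TBX3 and FOSL1, a T-box factor and a subunit of AP-1, rose by 0.95 and 0.94 on the log2 scale. The E-protein gene TCF12 and the SOX family gene SOX9 fell by 0.99 and 0.98 on that scale.

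The epithelial list held genes of keratin filaments, tight junctions, desmosomes and epithelial transcription other than CDH1, and 28 of its 49 genes in the files were tested. There were 12 genes called as higher, 8 as lower and 8 not called, a share of 71.4% called against 36.8% of all tested genes, with a median log2 fold change of 0.26. The genes called as higher included EHF, an epithelial ETS factor, with a log2 fold change of 3.33 (limma, adjusted p = 0.00361) and 2.58 without shRNA-UBC9 replicate 1 (adjusted p = 0.00197), the tight junction gene CLDN1 (1.08, adjusted p = 0.0085) and the desmosomal gene DSP (1.29, adjusted p = 0.0274). CLDN1 was 31.4, 52.2 and 26.1 RPKM in shRNA-NC and 85.7, 71.0 and 66.0 RPKM in shRNA-UBC9. EHF was 5.03, 1.04 and 0.929 RPKM in the shRNA-UBC9 samples and did not exceed 0.145 RPKM in shRNA-NC. The values of DSP were 3.95, 9.36 and 4.44 RPKM in shRNA-NC and 22.0, 11.3 and 9.92 RPKM in shRNA-UBC9, without overlap but close at the edge. DSP was not called without shRNA-UBC9 replicate 1 (log2 fold change 0.94, limma, adjusted p = 0.0557), shRNA-NC replicate 1 (adjusted p = 0.0968) or shRNA-NC replicate 3 (adjusted p = 0.0923). CDS1, MARVELD2 and SPINT1 were also called, with log2 fold changes of 1.51, 1.20 and 1.10. LSR, a gene of tricellular junctions, was 1.03, 6.94 and 0.872 RPKM in shRNA-NC and 13.7, 8.61 and 6.12 RPKM in shRNA-UBC9, so its groups overlapped through shRNA-NC replicate 2. Its log2 fold change was 2.20 (limma, adjusted p = 0.0359) and 3.11 without that sample (adjusted p = 0.000812). LSR was not called without shRNA-NC replicate 1 (adjusted p = 0.123), shRNA-NC replicate 3 (0.118), shRNA-UBC9 replicate 1 (1.90, adjusted p = 0.0855) or shRNA-UBC9 replicate 2 (0.0734).

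The 4 tested keratins of the list fell. KRT7 was 627, 510 and 530 RPKM in shRNA-NC and 216, 273 and 286 RPKM in shRNA-UBC9, with a fitted log2 fold change of -1.11 (SE 0.13, limma, adjusted p = 0.000578). KRT19, KRT18 and KRT8, of which KRT8 and KRT18 have many processed pseudogenes and are uncertain in how reads were shared, fell by 0.99, 0.93 and 0.81 on the log2 scale. The desmosomal linker PPL fell by 2.85 and PKP2 by 1.21, and the tight junction scaffold TJP1 by 0.79. Other defining epithelial genes were at or near 0. The transcription factor genes GRHL2 and OVOL1 and the trafficking gene RAB25 were listed at 0 in every sample, the splicing regulator ESRP1 did not exceed 0.114 RPKM and OVOL2 did not exceed 0.0163 RPKM.

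Within shRNA-UBC9, replicate 1 was the highest for 11 of the 12 epithelial genes called as higher, and within shRNA-NC, replicate 2 was the highest for 10 of the 12. Without shRNA-UBC9 replicate 1 the epithelial list had 9 genes called as higher and 8 as lower, and without shRNA-NC replicate 2 it had 11 and 8. The number called as higher was lowest, at 7, without shRNA-NC replicate 1 and without shRNA-NC replicate 3, and the number called as lower was 8 in each of the 6 fits that left out 1 sample.

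The mesenchymal list, without CDH2, VIM and FN1, had 33 of 48 genes tested. Of these, 9 were called as higher, 11 as lower and 13 were not called, a share of 60.6% against 36.8% of all tested genes, and the median log2 fold change was -0.14. The genes called as higher included the matrix gene TNC, from 0.618 to 8.29 RPKM (log2 fold change 3.54, limma, adjusted p = 1.5e-05). INHBA, an activin subunit, went from 7.71 to 96.4 RPKM on the group means with 164, 60.9 and 64.0 RPKM in the shRNA-UBC9 samples (log2 fold change 3.53, limma, adjusted p = 0.000454, and 3.06 without shRNA-UBC9 replicate 1, adjusted p = 0.000161). NT5E, PLAUR and MMP14, which encode an ectonucleotidase, the urokinase receptor and a membrane-bound matrix protease, rose by 1.88, 1.48 and 1.47 on the log2 scale.

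Contractile and other mesenchymal genes were among those called as lower. THBS1, a matrix glycoprotein, was 53.8, 64.0 and 55.9 RPKM in shRNA-NC and 7.04, 4.62 and 6.98 RPKM in shRNA-UBC9 (log2 fold change -3.22, limma, adjusted p = 1.4e-05). The smooth muscle actin gene ACTA2 and the actin-binding gene CALD1 fell by 1.51 and 1.26, and PDGFRB, WNT5B, NNMT, S100A4 and FBN1 fell by 1.48, 1.26, 1.16, 1.11 and 1.06 on the log2 scale. The summed level of the 48 genes was 1454 to 1540 RPKM in shRNA-NC and 2242 to 2606 RPKM in shRNA-UBC9.

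**Figure D4:**
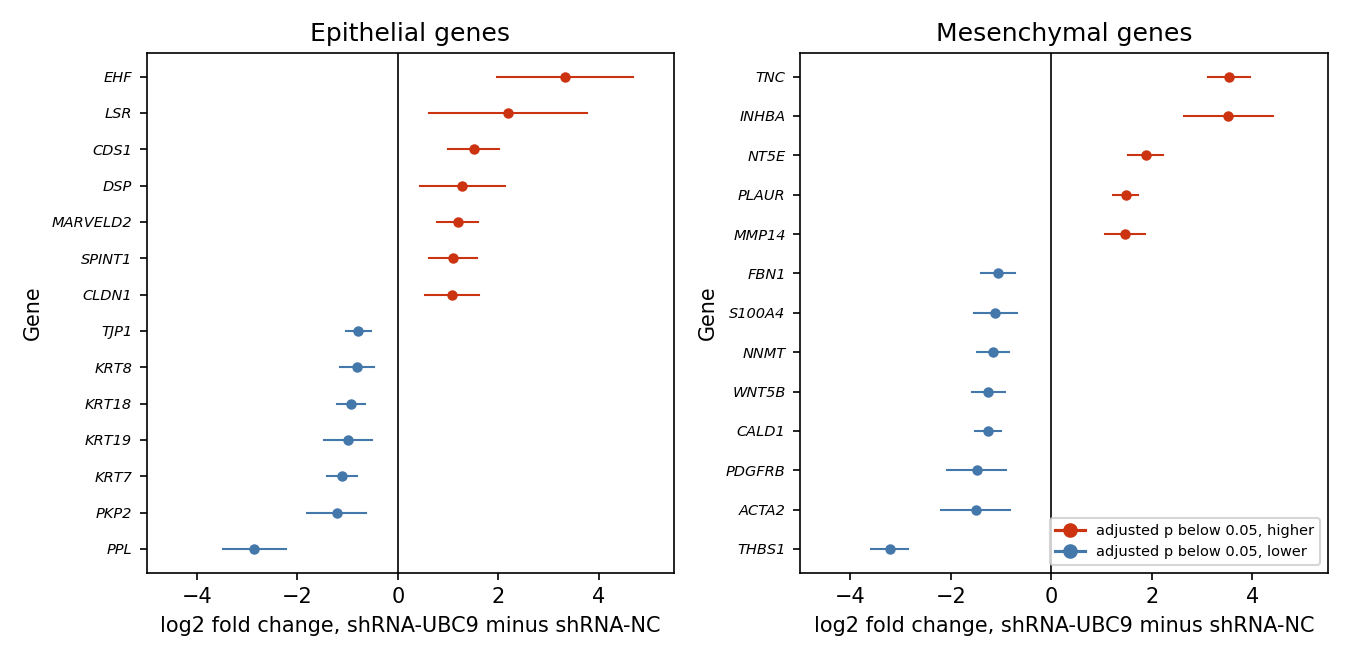
The log2 fold change (shRNA-UBC9 minus shRNA-NC) of the called genes named in the text from the epithelial list (left) and the mesenchymal list (right) with 95% intervals from limma, in red for genes called as higher and blue for genes called as lower. Both panels hold genes called in either direction, from EHF at 3.33 to PPL at -2.85 on the left and from TNC at 3.54 to THBS1 at -3.22 on the right.

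Of 32 cadherins, catenins and nectins apart from CDH1 and CDH2, 16 were tested, 2 were called as higher, 9 as lower and 5 were not called, a share of 68.8% called against 36.8% of all tested genes, with a median log2 fold change of -0.41. CDH10 and CDH4 fell by 2.31 and 1.27 on the log2 scale. VCL, which links cadherin complexes to actin, fell by 0.68 and CTNND1, which stabilises cadherins at the membrane, fell by 0.29. CTNND1 was not called without shRNA-NC replicate 1 or 3 or shRNA-UBC9 replicate 2 (limma, adjusted p from 0.0581 to 0.114). NECTIN1 and NECTIN2 rose by 0.64 and 0.41, of which NECTIN2 was not called without shRNA-NC replicate 3 or shRNA-UBC9 replicate 2 or 3 (adjusted p from 0.0565 to 0.0809). CDH3, the placental cadherin, did not exceed 0.0231 RPKM, so CDH2 remained at a far higher level than either CDH1 or CDH3 in all samples.

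Receptors and assembly factors of fibronectin had 17 of 21 genes tested, 4 called as higher, 2 as lower and 11 not called, a share of 35.3% called against 36.8% of all tested genes. ITGA5, the alpha subunit of the main fibronectin receptor, was 12.9, 8.97 and 11.8 RPKM in shRNA-NC and 22.3, 22.6 and 23.4 RPKM in shRNA-UBC9 (log2 fold change 1.03, SE 0.13, limma, adjusted p = 0.000865). ITGB3, a subunit of the vitronectin and fibronectin receptor, rose from 5.51 to 28.6 RPKM (2.36, adjusted p = 1.6e-05). TGM2, which crosslinks fibronectin, rose by 0.93 on the log2 scale and FBLN1, which binds it, fell by 0.68. The groups did not overlap for 6 of these 17 genes, ITGA5 and ITGB3 among them, against 51.1% of all tested genes. Among 10 relatives of vimentin, 3 were tested and SYNM, a filament protein that assembles with vimentin, was called as lower (-0.54, limma, adjusted p = 0.0171), but not without shRNA-UBC9 replicate 2 (adjusted p = 0.0629).

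Of 12 microRNA genes and antisense partners of the EMT genes in the files, 2 were tested and neither was called. The genes of the miR-200 family, which target ZEB1 and ZEB2 mRNA, were listed at 0 in every sample, and polyA libraries of long RNA do not measure mature microRNAs.

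Markers of other cell types were examined beside these results, with CDH5 also counted among the cadherins and PDGFRB and COL1A1 also among the mesenchymal genes. Of 10 fibroblast markers, 8 were below 0.5 RPKM in every sample, DPT was at 0, and their summed level was 0.993 to 1.34 RPKM in shRNA-NC and 0.905 to 1.36 RPKM in shRNA-UBC9. The defining fibroblast genes DCN and COL1A2 did not exceed 0.0166 and 0.0127 RPKM. Of 9 endothelial markers, 7 were below 0.5 RPKM in every sample, with CDH5 the 1 tested, which was called as lower (log2 fold change -2.20, limma, adjusted p = 0.00288). TIE1, named after its values were seen and below the filter, was 0.465, 0.194 and 0.384 RPKM in shRNA-NC and 0.472, 0.912 and 1.51 RPKM in shRNA-UBC9. The sum of the 9 markers was 3.07 to 3.50 RPKM in shRNA-NC and 0.873 to 2.62 RPKM in shRNA-UBC9. Of 11 leukocyte markers, 8 were below 0.5 RPKM in every sample and MS4A1 was among those at 0. Their sum was 2.70 to 4.89 RPKM in shRNA-NC and 20.9 to 50.4 RPKM in shRNA-UBC9, carried by the lysosomal gene CD68, while the pan-leukocyte gene PTPRC did not exceed 0.102 RPKM. CD68 was called as higher, with a log2 fold change of 3.52, and was the 1 called among the 3 tested leukocyte markers. It stayed called in every fit that left out 1 sample (limma, adjusted p from 0.000209 to 0.00234). PTPRC, CD3D, CD3E and LYZ, named after their values were seen, were all at 0 in shRNA-NC replicate 1 and shRNA-UBC9 replicate 3 and above 0 in the other 4 samples. Of the 14 urothelial markers, only 3 were tested. All 3 were called as lower, where 36.8% of all tested genes were called and 18% were called as lower. PPARG, FOXA1 and GATA3 had log2 fold changes of -2.15, -1.08 and -0.79. GATA3 was not called without shRNA-NC replicate 1 (limma, adjusted p = 0.0611) or replicate 3 (0.0575). The urothelial sum was 33.5 to 42.4 RPKM in shRNA-NC and 12.8 to 15.6 RPKM in shRNA-UBC9. The part of these markers in the results for the EMT genes was not tested.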

How the data were processed

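Polyadenylated RNA of 3 shRNA-NC and 3 shRNA-UBC9 samples of T24 cells was sequenced from TruSeq libraries on an Illumina HiSeq X platform. After trimming, the authors aligned the reads to GRCh38 (hg38) in the CLC Biomedical Genomics Workbench with default settings, and RPKM values were deposited. The gene annotation, the counting by strand and the handling of reads with several matches are not given in the sources used here. RPKM corrects for gene length and total mapped reads, but not for RNA composition.

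Mapped reads per sample were estimated here from the value of 1 read in 16524 genes with a single transcript in GENCODE 44. Of low values, up to 20 reads, 64.5% to 69.7% per sample lay within 0.05 of a whole number. Reads behind single genes were taken at the length that made all 6 values whole to within 0.01. Identical values above 0 were not found between any samples.

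Genes reaching 0.5 RPKM in 3 or more of 6 samples entered the comparison of log2(RPKM + 0.1), which used limma 3.58.1 (R 4.3.3; lmFit, then eBayes with an intensity trend) and Benjamini-Hochberg adjustment over the 12428 tested genes. Fold changes are on this scale and are therefore too small for low genes. Genes were called at an adjusted p below 0.05, and a DEG also has a log2 fold change beyond 1. Differences within related pairs were tested by an exact two-sided permutation test. The scripts were tested on simulated data in which 200 of 12428 genes were changed. The fit recovered 0% of these genes at a log2 change of 0.5, 81.5% at 1 and 98.5% at 2. Far more genes, 4576, were called in the real samples, so these shares do not carry over directly. Python 3.11.15, numpy 2.4.6, pandas 2.3.3, scipy 1.17.1 and matplotlib 3.10.9 were used.

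The 10 genes and the gene lists were chosen with earlier results of these data known, and the lists were written from general knowledge. All 10 genes are given with all values, and from each list the called genes with the largest change, at most 8 in each direction, and defining markers at or near 0 were named. CTNND1, with the smallest called fall among the cadherins, catenins and nectins, was named outside this rule. Some genes that would be named are not reported here, and proteins were not examined because no protein sequences were at hand. Gene positions are those of GENCODE 44 (GRCh38), and promoter sequences were taken from RefSeq (GRCh38.p14). Same-numbered samples of the groups were checked for pairing by the correlation of their deviations from the group means. This correlation ranged from -0.37 to 0.07, and samples were not paired by number in the main fit. Among samples with different numbers the correlation was highest, at 0.53, for shRNA-NC replicate 1 with shRNA-UBC9 replicate 3. Alternatives were other pseudocounts, filters and scalings, no intensity trend, a replicate block, the DEG cutoff, and leaving out each sample.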

Additional observations from a re-analysis of the deposited data

How the results depend on the processing

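SNAI1 and SNAI2 were called as higher in all 15 alternatives each, with log2 fold changes from 0.94 to 1.52 and from 0.75 to 0.87. ZEB2 was higher in all 14 alternatives in which it was tested, with log2 fold changes from 0.33 to 0.69, but it was not called in 7 of them. Besides the left-out samples these were the fit without a filter on low values (limma, adjusted p = 0.0748) and the replicate block. With the replicate number as a block, ZEB2 had an adjusted p of 0.0806 (limma) and 2 of the 7 EMT genes were called. The labels link the same-numbered samples only by that number, so whether the block stands for a shared preparation is not known. Leaving out each sample in turn gave 2 to 4 called EMT genes, 3034 to 4183 of all tested genes, 15 to 21 epithelial genes and 17 to 20 mesenchymal genes. The lowest count of all tested genes, 3034, was without shRNA-NC replicate 3. With the DEG cutoff the counts were 1 EMT gene, 981 of all genes and 10 epithelial genes, and at a minimum of 1 RPKM in every sample 13 epithelial genes were called, with fewer genes tested. ZEB1 changed sign without shRNA-NC replicate 3 and FN1 without shRNA-UBC9 replicate 2, neither being called, and the cause was not tested. Over the left-out samples the log2 fold change ranged from -0.12 to 0.038 for ZEB1 and from -0.71 to 0.054 for FN1. The difference of the ZEB1 minus ZEB2 gap ranged from -0.77 to -0.48 and that of SNAI1 minus SNAI2 from 0.40 to 0.68 over the left-out samples, and with a pseudocount of 1 they were -0.38 and 0.18. Quantile, median and upper-quartile scaling moved the median of all genes by less than 0.1 and changed no call of the 7 genes. TWIST1, TWIST2 and CDH1 were at or near the limit of detection in shRNA-NC, so a decrease of these genes could not be measured. None of them exceeded the 3-read limit in any shRNA-UBC9 sample, and changes below that limit could not be measured.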
